A study of Mus musculus with 12 samples.

Results

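Adipocyte identity and adipokine transcripts were followed through a set of 10 genes in the spleen and axillary lymph node of mice that differ in apolipoprotein A-I. The set holds the hormone genes Adipoq, Lep, Retn and Cfd, the small adipocyte gene Adig, the lipid droplet genes Plin1 and Cidec, the lipid-handling genes Fabp4 and Pck1, and the regulator Pparg. Its members were chosen by gene symbol, with earlier results of these data known, and all 10 had a row in both deposited count tables, of 23284 gene symbols in each. All mice were 30 weeks old, were fed a normal laboratory diet and lacked 2 apolipoproteins (double knockout, DKO). These are apoE, which lets liver receptors take up remnant particles, and mouse apoA-I, on which high density lipoprotein is built. The comparison group, DKO/hA-I, carried these 2 deficiencies and overexpressed human apoA-I, from a promoter not given in the sources used here. Poly(A) RNA was sequenced from 3 libraries in each of the 4 groups of tissue and genotype, every library has an animal code of its own, and no code occurs in both tissues.

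White adipocytes store triglyceride in a single large droplet coated by perilipin 1 and enlarged by the Cidec protein, and they release hormones into the blood. The nuclear receptor PPARgamma, with its partner RXR, switches on most genes of this programme, and C/EBPalpha sustains it. Peripheral lymph nodes lie embedded in fat pads. PPARgamma and Fabp4 are also known from macrophages, and Fabp4 from capillary endothelium, so these 2 genes do not mark adipocytes alone.

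Some facts of the libraries bear on all that follows. Total counts ran from 5911835 in DKO node replicate 2 to 11950825 in DKO node replicate 3, and levels are given as counts relative to library size (CPM) after scaling all 12 libraries together with TMM factors. A floor of 3 counts stood at 0.259 to 0.506 CPM, and floors and counting intervals cover counting error only. Mouse Apoa1, which is targeted in both genotypes, lay between 0 and 1.30 CPM in all 12 libraries, and no value of the human gene was analysed here, so neither checks the genotype labels. The pseudogene Rpl31-ps12 stood at 58.5 to 90.2 CPM in the 3 DKO nodes and at 52.7 to 74.6 CPM in the 3 spleens labelled DKO/hA-I, against at most 0.221 CPM in the other 6 libraries. It thus separates the genotypes in opposite directions in the tissues, and every direction below is that of the labels. The DKO nodes also share the middle number of their animal codes, a number that none of the DKO/hA-I nodes carries, so in lymph node the effect of genotype cannot be told apart from that of whatever the number marks. The tissue labels fitted their markers: the spleen-patterning genes Tlx1 and Nkx2-5 had 0 counts in all 6 nodes and at least 4.59 CPM in each spleen, and Glycam1, a product of node venules, stood at 46.0 to 177 CPM in nodes and at most 0.331 CPM in spleens. All p-values refer to the spread among libraries. DKO node replicate 2, the least deep library, stands apart from its group: over all genes, chi-square per degree of freedom was 56.9 and 54.7 to DKO nodes 1 and 3, against 14.5 between those. It also holds the highest DKO node value of 7 members (Adipoq, Retn, Cfd, Adig, Plin1, Cidec and Pck1), and results without it are given below. Among spleens the widest pair, labelled DKO replicates 1 and 2, stood at 50.05.

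The sequence before the start site is shown for 3 members that fell together in DKO nodes and that carry different elements known from adipocyte or liver promoters. Each run is the 250 bases before the RefSeq start site on GRCm38.p6, written 5′ to 3′ on the gene's strand, with motif matches in capitals. The Adipoq run covers chr16:23146286-23146535, the Lep run chr6:29059971-29060220 and the Pck1 run chr2:173152823-173153072, all on the plus strand. The GENCODE vM21 annotation starts the Pck1 gene at 173153048, inside its run, and Lep at 29060220, the last base of its run. Capitals mark CCAAT in Adipoq, TTGCNNAA, the core bound by C/EBP proteins, in Lep, and TGACGT, the core of the cAMP response element, in Pck1, each read on either strand.
Adipoq: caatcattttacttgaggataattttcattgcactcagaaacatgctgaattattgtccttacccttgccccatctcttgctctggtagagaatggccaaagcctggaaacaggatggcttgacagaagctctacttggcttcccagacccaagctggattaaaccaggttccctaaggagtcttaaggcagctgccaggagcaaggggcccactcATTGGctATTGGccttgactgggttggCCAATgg
Lep: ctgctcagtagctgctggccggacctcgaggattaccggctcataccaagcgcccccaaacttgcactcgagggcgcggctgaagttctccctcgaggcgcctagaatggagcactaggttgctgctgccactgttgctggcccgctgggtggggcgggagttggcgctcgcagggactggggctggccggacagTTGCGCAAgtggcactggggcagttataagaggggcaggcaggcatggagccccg
Pck1: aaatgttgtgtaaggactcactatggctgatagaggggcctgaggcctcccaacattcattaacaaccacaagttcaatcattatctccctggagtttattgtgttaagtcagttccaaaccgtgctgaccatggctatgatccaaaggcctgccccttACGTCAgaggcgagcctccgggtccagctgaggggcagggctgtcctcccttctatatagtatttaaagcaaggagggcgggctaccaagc
RefSeq windows of 300 bases (the 250 before and 50 after a start site) were found for 9 of the 10 genes, 12 windows in all. Fabp4 was not matched. The C/EBP core lay in a window of 4 of the 9 genes (Lep, Plin1, Cidec and Pparg). That was 4 of the 12 windows, against 10.8% of all 32851 windows of that length. CCAAT lay in a window of 3 of 9 genes and in 4 of 12 windows, against 37.4% of all windows. AGGTCA, the half-site of nuclear receptors, was found for 2 of 9 genes (Adig and Pparg), in 3 of 12 windows, against 16.3%. TGACGT was found for 1 of 9 (Pck1), in 1 of 12 windows, against 7.51%. TATAAA was found for 1 of 9 (Pparg), in 1 of 12 windows, against 13.6%. Cidec has 2 windows and Pparg 3, and a match describes letters only.

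The first comparison asks which of these genes differ between DKO and DKO/hA-I lymph nodes. In DKO nodes, 9 of the 10 genes were lower, all but Pparg, by 9.50-fold (Fabp4) to 70.3-fold (Adig) in the edgeR fit. By edgeR's quasi-likelihood test with a Benjamini-Hochberg adjusted p under 0.05 over all 14012 genes tested, 6.87% of genes were called, 3.95% as higher and 2.92% as lower. In the 9 genes the highest DKO node lay below the lowest DKO/hA-I node, which was so for 14.9% of all genes tested. The median log2 fold change (DKO minus DKO/hA-I) over the 10 genes was -5.23, against 0.01 over all genes. A caveat applies to Lep, Retn and Adig, which reached the low-count filter in at most 1 DKO node and so entered the test through the DKO/hA-I nodes. The other 7 reached it in all 6 nodes, and 6 of these were called. Without DKO node replicate 2, 7 of the 10 genes were called, in a fit that called 2245 genes. The log2 fold changes were then -5.82 for Adipoq, -5.42 for Lep, -4.29 for Retn, -5.15 for Cfd, -6.53 for Adig, -5.30 for Plin1, -5.98 for Cidec, -3.34 for Fabp4, -6.004 for Pck1 and -0.64 for Pparg, with Retn and Cfd no longer called. In a bulk sample, fewer adipocytes and less RNA per adipocyte cannot be told apart. Nor can a difference in how much of the surrounding fat pad was taken with each node, which was not tested.

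**Figure D1:**
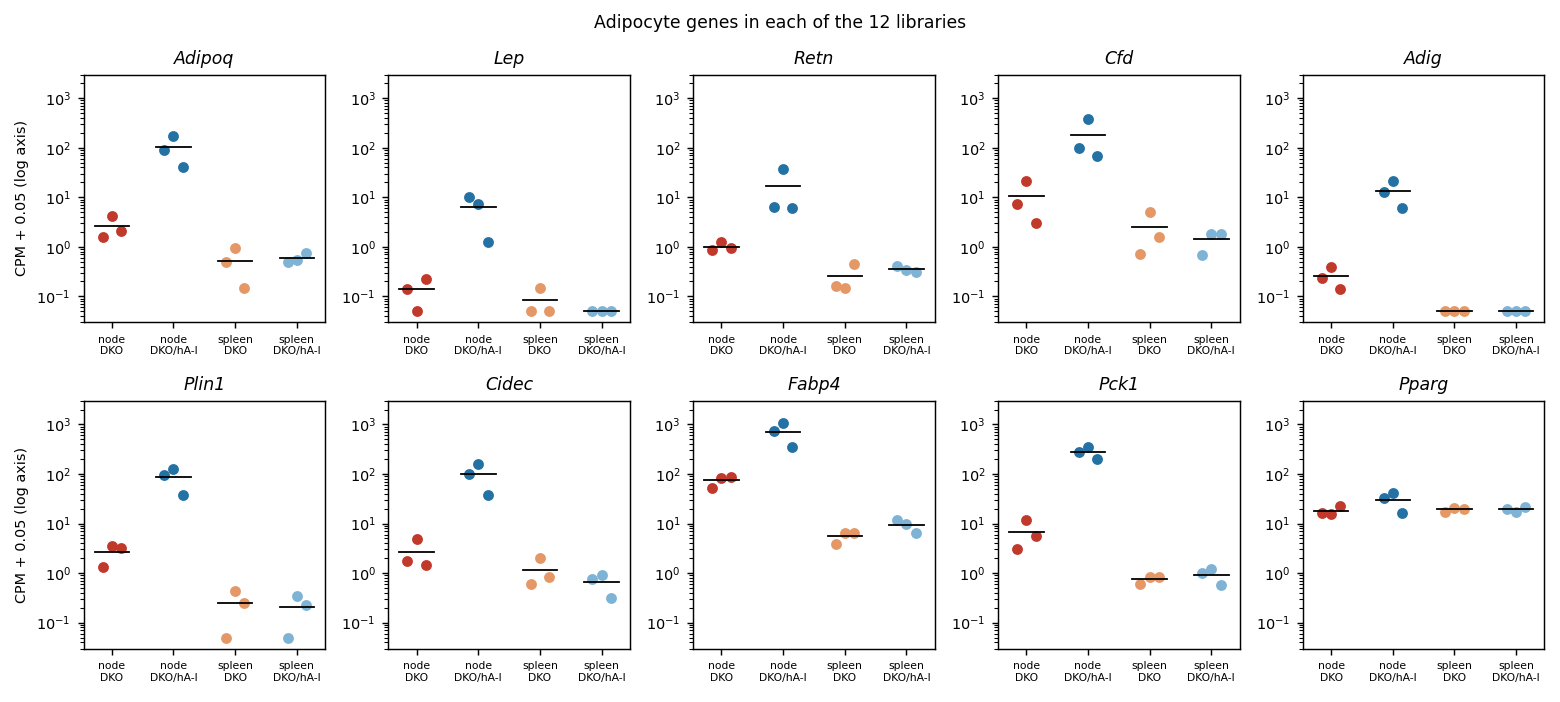
CPM of each of the 10 genes (log axis, with 0.05 added so that 0 can be drawn) in the 12 libraries, by tissue and genotype; points are libraries and bars group means. In 9 genes the 3 DKO/hA-I nodes stand above the other 9 libraries, and Pparg lies between 15.9 and 41.0 CPM in all 12.

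The secreted products come first. Adipoq encodes adiponectin, the most abundant hormone of fat cells (gene ENSMUSG00000022878.5, chromosome 16, 23146536 to 23158028, plus strand, GENCODE vM21 on GRCm38). It stood at 1.53, 4.22 and 2.03 CPM in DKO nodes 1 to 3 and at 89.2, 175 and 40.5 CPM in DKO/hA-I nodes 1 to 3. The lowest DKO/hA-I node was thus 9.61-fold above the highest DKO node. The group means were 2.59 ± 1.43 and 101 ± 67.9 CPM (SD, n = 3, as for all means below), a log2 fold change of -5.38 ± 0.64 (standard error; edgeR adjusted p = 0.00993).

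Lep encodes leptin, the satiety hormone released in proportion to fat stores (ENSMUSG00000059201.12, chromosome 6, 29060220 to 29073877, plus strand). The DKO nodes held 1, 0 and 2 counts of it and the DKO/hA-I nodes 109, 81 and 11, that is 10.1, 7.32 and 1.18 CPM. With 3 counts against 201, DKO/hA-I nodes held 61.1 times the DKO level, with a 95% exact counting interval of 20.6 to 299. The fitted log2 fold change was -5.73 ± 1.04 (edgeR adjusted p = 0.0245).

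Retn encodes resistin, which in mice is made chiefly by adipocytes (ENSMUSG00000012705.16, chromosome 8, 3655770 to 3660110, plus strand). DKO nodes stood at 0.81, 1.18 and 0.883 CPM, and DKO/hA-I nodes at 6.41, 38.0 and 5.92 CPM. A single library, DKO/hA-I replicate 2, was far above its group, and without it the log2 fold change moved from -4.15 ± 0.88 to -2.69 (edgeR adjusted p = 0.0359 and 0.0304). The groups stayed apart in all 6 libraries, the lowest DKO/hA-I node lying 5.01-fold above the highest DKO node.

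Cfd encodes complement factor D, or adipsin, the protease that starts the alternative complement pathway (ENSMUSG00000061780.6, chromosome 10, 79890853 to 79892655, plus strand). It stood at 7.20, 21.3 and 2.91 CPM in DKO nodes and at 98.1, 376 and 67.4 CPM in DKO/hA-I nodes. Within each genotype the highest library was several times the lowest, 7.30-fold in DKO and 5.57-fold in DKO/hA-I. The log2 fold change was -4.18 ± 0.90 (edgeR adjusted p = 0.0377). Its call did not outlast the loss of any single library: leaving out each of the 6 nodes in turn gave adjusted p of 0.0572 to 0.116, and the log2 fold change was -5.15 when DKO replicate 2 was dropped and -3.04 when DKO/hA-I replicate 2 was. Lep lost its call without DKO replicates 1 and 3 and DKO/hA-I replicates 1 and 2 (adjusted p = 0.0729, 0.0873, 0.0681 and 0.0833), and Retn without any 1 of the DKO nodes or DKO/hA-I replicate 1 (0.0926, 0.142, 0.134 and 0.0538).

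Adig encodes adipogenin, a small membrane protein of fat cells (ENSMUSG00000044405.4, chromosome 2, 158502612 to 158508198, plus strand). DKO nodes held 2, 2 and 1 counts, and DKO/hA-I nodes 140, 238 and 55 counts, or 13.0, 21.5 and 5.92 CPM. By counts, DKO/hA-I nodes held 78.9 times the DKO level (95% exact counting interval 33.6 to 244). In fitted log2 fold change it was the most negative of the 10, at -6.13 ± 0.69 (edgeR adjusted p = 0.00937), with the lowest DKO/hA-I node 17.5-fold above the highest DKO node.

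The genes of the droplet surface followed the hormones. Plin1, whose product perilipin 1 coats the droplet and gates lipolysis (ENSMUSG00000030546.14, chromosome 7, 79720218 to 79732903, minus strand), stood at 1.26, 3.54 and 3.09 CPM in DKO nodes and at 95.5, 128 and 37.3 CPM in DKO/hA-I nodes. Its log2 fold change was -5.08 ± 0.56 (edgeR adjusted p = 0.00903). Cidec, whose product lets droplets fuse and grow (ENSMUSG00000030278.11, chromosome 6, 113424634 to 113435760, minus strand), stood at 1.71, 4.72 and 1.41 CPM against 101, 160 and 37.9 CPM. Its log2 fold change of -5.38 ± 0.67 (edgeR adjusted p = 0.0113) was that of Adipoq to the second decimal.

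Of the lipid-handling genes, Fabp4 had the highest level per transcript length in all 6 nodes. Fabp4 encodes the fatty acid carrier of adipocytes, aP2 (ENSMUSG00000062515.3, chromosome 3, 10204088 to 10208576, minus strand). It stood at 53.1, 83.0 and 86.3 CPM in DKO nodes and at 733, 1047 and 351 CPM in DKO/hA-I nodes. The fold was the smallest of the 9 called genes, with a log2 fold change of -3.25 ± 0.41 (edgeR adjusted p = 0.0118). Pck1 encodes cytosolic phosphoenolpyruvate carboxykinase, which in fat supplies the glycerol backbone of triglyceride (ENSMUSG00000027513.11, chromosome 2, 173153048 to 173159273, plus strand). It stood at 2.97, 11.6 and 5.56 CPM in DKO nodes and at 276, 352 and 202 CPM in DKO/hA-I nodes, where its libraries were closer together (highest over lowest 1.74) than those of any other member. Its log2 fold change was -5.43 ± 0.48 and its adjusted p, 0.00729, the smallest of the 10.

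Pparg, the regulator itself (ENSMUSG00000000440.12, chromosome 6, 115360951 to 115490399, plus strand), did not pass the test. DKO nodes stood at 16.02, 15.9 and 22.1 CPM and DKO/hA-I nodes at 32.2, 41.0 and 16.3 CPM. The groups overlapped, since DKO/hA-I replicate 3 lay within the range of the DKO nodes. The log2 fold change was -0.72 ± 0.32 (edgeR adjusted p = 0.219), and over the 13 other settings tried it ran from -1.02 to -0.42 with no adjusted p under 0.0660.

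**Figure D2:**
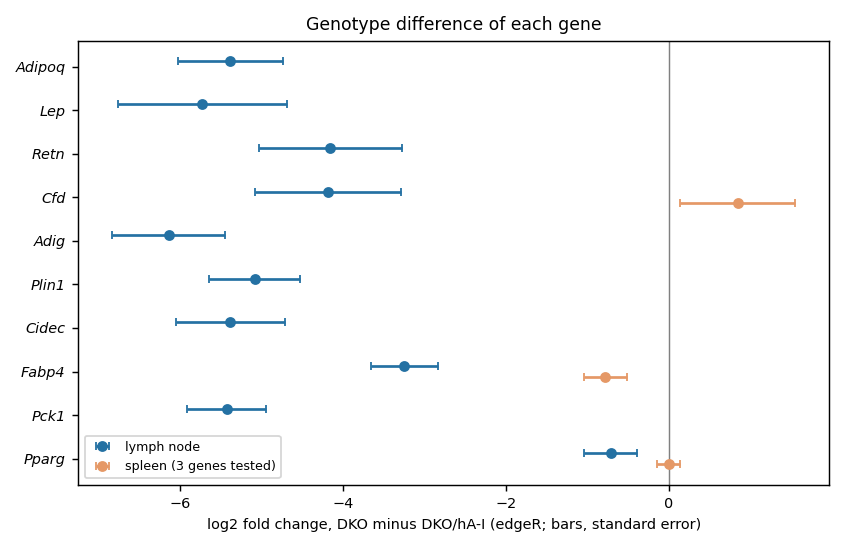
Log2 fold change of each gene, DKO minus DKO/hA-I, with its standard error (edgeR), in lymph node (10 genes) and spleen (the 3 that could be tested). In lymph node 9 genes lie between -6.13 and -3.25 and Pparg at -0.72; in spleen Cfd lies at 0.84, Fabp4 at -0.78 and Pparg at 0.

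The 3 DKO/hA-I nodes did not hold equal amounts of these transcripts. Replicate 3 was lowest for all 10 genes, and replicate 2 highest for 9 of them, Lep being highest in replicate 1. Together the 10 genes made up 0.146%, 0.244% and 0.0770% of all counts in DKO/hA-I nodes 1 to 3, and 0.00823%, 0.0146% and 0.0118% in DKO nodes 1 to 3. The lowest DKO/hA-I share was above the highest DKO share. Without DKO/hA-I replicate 2 the log2 fold changes shrank to -4.72 for Adipoq, -4.83 for Cidec, -4.69 for Plin1 and -2.86 for Fabp4, and 7 members stayed called. That fit called 115 genes in all, 0.808% of those tested.

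Levels of different genes were compared per length, as CPM per kilobase of the main protein-coding transcript in GENCODE vM21. In DKO/hA-I nodes Fabp4 led at 793 ± 389 CPM per kilobase, followed by Cfd at 196 ± 184, Pck1 at 104 ± 28.2 and Adipoq at 78.6 ± 52.6. Cidec stood at 57.9 ± 35.6, Plin1 at 30.8 ± 16.2, Adig at 21.3 ± 12.4, Pparg at 16.9 ± 7.08, Retn at 14.7 ± 16.1 and Lep at 1.91 ± 1.40. Given these SDs, most neighbours in this order do not differ beyond their spread. Fabp4 is set apart: its lowest DKO/hA-I node, at 391.5 CPM per kilobase, lies below only the single highest library of Cfd, at 408.

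Per length and relative to Adipoq in the same library, some members kept their proportion and others did not. Cidec stood at 0.690 to 0.847 of Adipoq in DKO/hA-I nodes and at 0.523 to 0.841 in DKO nodes. Plin1 lay at 0.335 to 0.491 and at 0.378 to 0.698, and Pck1 at 0.979 to 2.42 and at 0.943 to 1.34. These 3 ratios overlapped between the genotypes. Fabp4 stood at 8.64 to 12.5 times Adipoq in DKO/hA-I nodes but at 28.4 to 61.3 times in DKO nodes. Pparg stood at 0.172 to 0.295 against 2.75 to 7.95, and Retn at 0.0815 to 0.246 against 0.318 to 0.601. For Fabp4, Pparg and Retn the genotypes did not overlap, the ratios being higher in DKO nodes, as they were for 99.2% of the 14011 other genes tested. Adig stood at 0.252 to 0.298 of Adipoq in DKO/hA-I nodes and at 0.0889 to 0.241 in DKO nodes. Its genotypes did not overlap either, with the DKO nodes lower, as for 0.0214% of genes, but its DKO values rest on 1 or 2 counts per library. Cfd (1.54 to 3.01 against 2.01 to 7.06) and Lep overlapped. The DKO values rest on 17 to 25 counts of Adipoq and 7 to 10 of Retn per library.

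**Figure D3:**
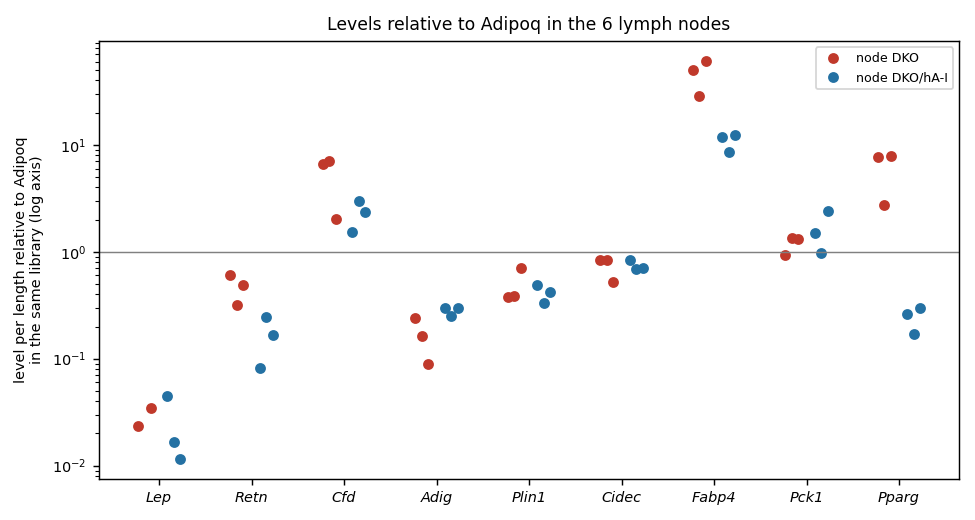
Level per transcript length of each gene relative to Adipoq in the same library (log axis) in the 6 lymph nodes; points are libraries, a line marks equality with Adipoq, and the 1 DKO node without a Lep count is not drawn. Cidec, Plin1 and Pck1 overlap between the genotypes, as do Cfd and Lep, whereas Fabp4, Pparg and Retn are higher, and Adig lower, relative to Adipoq in all 3 DKO nodes.

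Other genes of the adipocyte programme were read from lists of companions. Over all genes tested in lymph node, 3.95% were called as higher and 2.92% as lower in DKO. Some companions, named with each list, lay under the low-count filter in at least 1 DKO node. These entered the test through the DKO/hA-I nodes, where they are high. Of 10 genes of lipogenesis and glucose uptake, 9 fell in DKO nodes and the insulin receptor gene Insr (log2 fold change -0.31, edgeR adjusted p = 0.201) was not called. All but Pnpla3 reached the filter in all DKO nodes. Fasn, fatty acid synthase, stood at 213 ± 60.6 CPM in DKO and 3781 ± 2154 in DKO/hA-I nodes. Thrsp, a lipogenic nuclear protein, had a log2 fold change of -5.05, Slc2a4, the insulin-regulated glucose transporter, of -4.64, and Scd1, the stearoyl-CoA desaturase, of -3.15. Of 12 genes of the droplet and lipolysis, 7 fell, among them Cidea (-6.17), the beta-3 adrenergic receptor gene Adrb3 (-5.37), the droplet coat gene Plin4 (-4.84) and the glycerol channel gene Aqp7 (-3.84). Of the 8 that reached the filter in all DKO nodes 3 fell, and the other 4 calls were Cidea, Adrb3, Aqp7 and Plin5. Plin2, a droplet coat found in most cells including macrophages, stood at 274 ± 110 CPM in DKO and 168 ± 51.7 in DKO/hA-I nodes and was not called (0.72 ± 0.34, adjusted p = 0.245).

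Among 12 genes of fatty acid uptake and triglyceride synthesis, 5 fell and 1 rose. Those that fell included the glycerol-3-phosphate dehydrogenase gene Gpd1 (log2 fold change -5.22) and the acyltransferase genes Dgat2 (-4.06) and Agpat2 (-3.08). Fabp5, a fatty acid carrier of skin and macrophages, rose (1.54 ± 0.30, edgeR adjusted p = 0.0309). The lipoprotein lipase gene Lpl, at 484 to 2408 CPM in DKO and 243 to 572 in DKO/hA-I nodes, was not called (adjusted p = 0.112). Lpl is also made by macrophages.

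Of 12 adipogenic transcription factors, 4 fell: the carbohydrate response factor Mlxipl (-4.996), the fatty acid sensor Ppara (-4.74), the coactivator gene Ppargc1a (-2.20) and Klf15 (-1.495), of which Mlxipl and Ppara lay under the filter in a DKO node. Like Pparg, other core factors were not called. Cebpa stood at 79.2 ± 28.1 CPM in DKO and 78.1 ± 26.1 in DKO/hA-I nodes (log2 fold change 0.04 ± 0.33, edgeR adjusted p = 0.960), and Rxra at 105 ± 12.9 and 117 ± 12.1 (-0.14 ± 0.14, adjusted p = 0.598). Both are also expressed in some blood cells. Of 8 brown fat genes tested, 6 fell, but 5 of the 6 (Ucp1, Cox8b, Cox7a1, Elovl3 and Otop1) lay under the filter in at least 1 DKO node. Of the 3 that reached it in all DKO nodes, Pdk4, a kinase gene that restrains glucose oxidation, fell (-3.90). The others were not called: Prdm16 stood at 2.84 ± 0.310 CPM in DKO and 5.47 ± 2.25 in DKO/hA-I nodes, and Dio2 at 7.36 ± 3.19 and 10.7 ± 9.12. Ucp1, the uncoupling protein that makes heat, stood at 5.19 ± 3.89 and 226 ± 185 CPM, and the lipid elongase gene Elovl3 and the respiratory chain gene Cox8b had log2 fold changes of -5.24 and -5.84. Of 9 other secreted products, Lgals12 (-3.81) and the retinol carrier gene Rbp4 (-3.26) fell, both under the filter in a DKO node. Of 5 preadipocyte genes tested, Pdgfra, the growth factor receptor of progenitors, rose from 54.5 ± 4.70 to 116 ± 25.6 CPM in DKO nodes (1.11 ± 0.18, adjusted p = 0.0177).

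Receptors and partners of these hormones were read in the same comparison. Of all genes tested there, 3.95% were called as higher and 2.92% as lower in DKO nodes. Among 9, the leptin receptor gene Lepr fell, with 61.2 ± 13.9 CPM in DKO and 128 ± 6.97 in DKO/hA-I nodes (log2 fold change -1.05 ± 0.18, edgeR adjusted p = 0.0199), and C3, the complement protein that factor D helps to cleave, rose (1.14 ± 0.23, adjusted p = 0.0310). The adiponectin receptor genes Adipor1 and Adipor2 stood at 0.43 ± 0.12 (adjusted p = 0.0757) and -0.81 ± 0.20 (adjusted p = 0.0512), neither called.

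**Figure D4:**
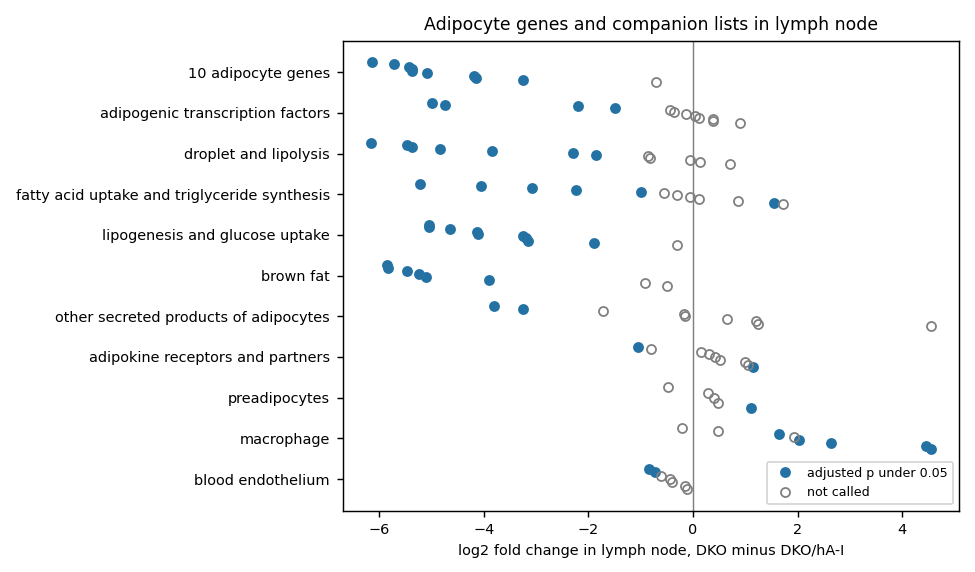
Log2 fold change in lymph node, DKO minus DKO/hA-I, of each tested member of the adipocyte set, of 8 companion lists and of 2 cell marker lists; filled points have an edgeR adjusted p under 0.05. Lipogenic and brown fat genes lie with the adipocyte genes on the negative side, and most macrophage markers on the positive side. Of the 6 called brown fat genes, 5 lay under the low-count filter in a DKO node.

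Markers of other cell types moved in the same comparison, in which 3.95% of all genes were called as higher and 2.92% as lower in DKO nodes. Of 8 macrophage markers tested, 5 rose in DKO nodes: Trem2 (log2 fold change 4.55), Gpnmb (4.46), Lgals3 (2.64), Cd68 (2.03) and Mertk (1.65). The list's summed level was 1363 to 4891 CPM in DKO and 659 to 848 in DKO/hA-I nodes, DKO replicate 2 being the lowest of its group and the others at 4105 and 4891. Of 7 blood endothelial markers, Kdr (-0.84) and Tek (-0.72) fell, with summed levels of 554 to 664 and 815 to 846 CPM. Of 6 node markers, Chst4 (-1.15), an enzyme of high endothelial venules, and Lyve1 (-0.80), a lymphatic marker, fell, with summed levels of 339 to 526 and 571 to 715 CPM. Skeletal muscle markers summed to 4.89 to 6.80 CPM in DKO and 7.62 to 11.8 in DKO/hA-I nodes, and nerve markers to 105 to 172 and 144 to 185 CPM. Of the skin and mammary epithelial markers the keratin genes Krt14, Krt5 and Krt15 had 0 counts in all 6 nodes, and the list summed to 8.01 to 72.9 CPM in DKO and 4.34 to 8.55 in DKO/hA-I nodes, the highest being DKO replicate 2. B cell markers summed to 1396 to 2202 CPM in DKO and 2277 to 2460 in DKO/hA-I nodes, and T cell markers to 339 to 560 and 626 to 702 CPM. Their median log2 fold changes were -0.43 and -0.52, against 0.01 over all genes, with all 4 genes of each list negative. Neither muscle, nerve, epithelial, B cell nor T cell markers had a called member in lymph node. The smallest edgeR adjusted p among them was 0.0915 (Cd3d). Only 3 of 7 muscle markers and 1 of 7 epithelial markers could be tested. The part of these cells in the fall of the adipocyte genes was not tested.

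**Figure D5:**
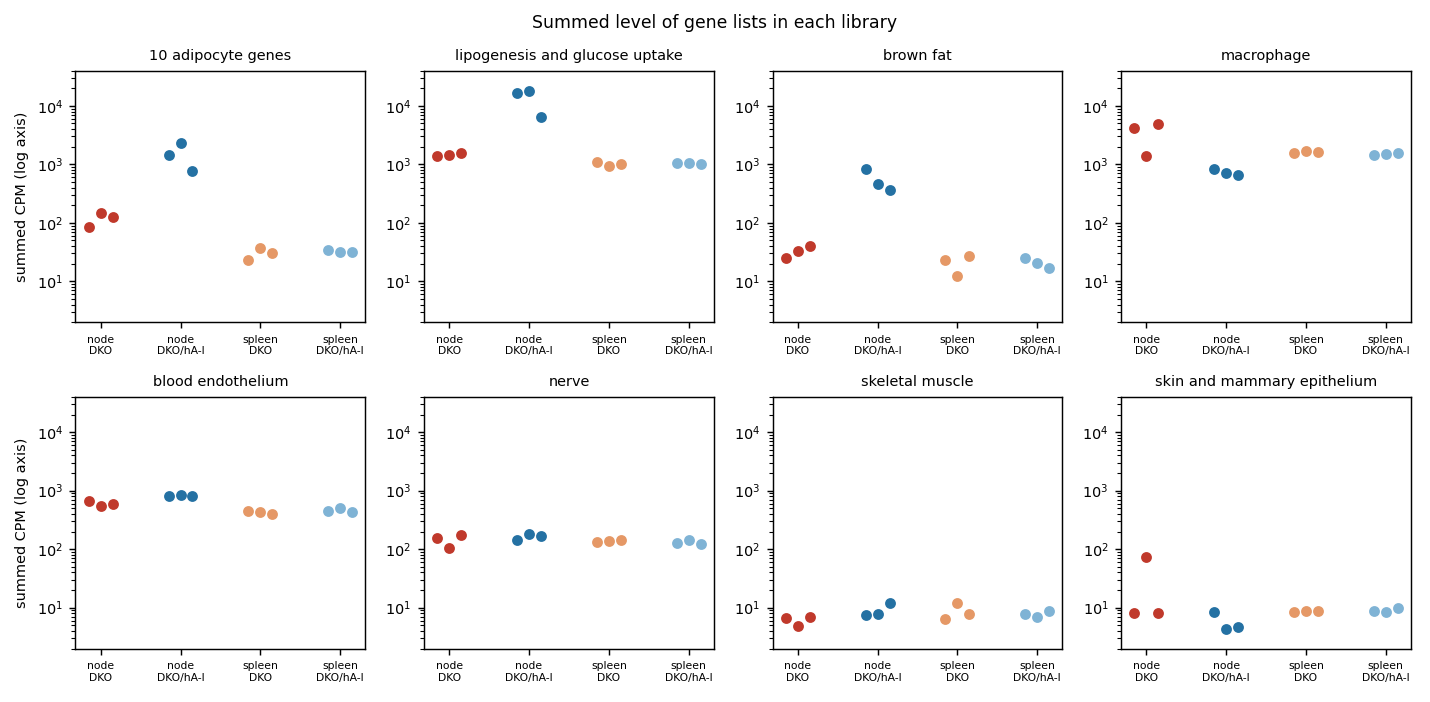
Summed CPM (log axis) of the 10 adipocyte genes and of 7 other lists in each library; points are libraries. The DKO/hA-I nodes stand apart for adipocyte, lipogenic and brown fat genes, and the DKO nodes lie higher than the DKO/hA-I nodes for macrophage markers.

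The authors' deposited table gives its own comparison of the genotypes in lymph node. Its log2 ratios, whose first group was read as DKO from their correlation with the edgeR values over 14010 genes (Pearson r = -0.993; genes are not independent replicates), lay between 3.22 and 6.10 in favour of DKO/hA-I for the 9 genes. That table called 8 of the 10 genes, and 784 genes in all. Cfd was the difference: the authors' deposited table gives it a log2 ratio of 4.15 with p = 0.707 and q = 0.999995. For Pparg the authors' deposited table gives 0.73 with q = 0.510. In spleen the deposited log2 ratios correlated positively with the edgeR values (Pearson r = 0.945 over 14009 genes). Their first group was therefore read as DKO/hA-I as labelled, the reverse of lymph node, and the cause was not tested. The authors' deposited table for spleen called 0 of the 10 genes, and 8 genes in all.

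The second comparison asks whether the same genes differ between spleens labelled DKO and DKO/hA-I. The spleen held little of most of them, and no member was called. Only Cfd, Fabp4 and Pparg passed the low-count filter; by edgeR 0.00714% of 14009 genes were called, that is 1 gene, Rpl31-ps12, with 617 genes at an unadjusted p under 0.05. Of the 3 members, 1 (Fabp4) had an unadjusted p under 0.05, and DESeq2 and limma voom called 0 of them.

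Pparg stood at 17.2, 20.9 and 20.0 CPM in spleens labelled DKO and at 20.0, 16.7 and 21.1 CPM in those labelled DKO/hA-I. Its groups overlapped, and the log2 fold change was -0.00 ± 0.14 (edgeR adjusted p = 0.999). Fabp4 stood at 3.75, 6.26 and 6.30 CPM against 11.7, 9.90 and 6.46 CPM. These groups did not overlap, as for 5.53% of genes tested, but by a margin of 1.03-fold only, and the log2 fold change of -0.78 ± 0.27 was not called (edgeR adjusted p = 0.929). Cfd stood at 0.663, 5.08 and 1.501 CPM against 0.618, 1.73 and 1.72 CPM, with a log2 fold change of 0.84 ± 0.71 (edgeR adjusted p = 0.929). That value rested on DKO replicate 2, without which it was -0.29. With the middle number of the animal code as a block it was called (1.46, edgeR adjusted p = 0.0357, in a fit that called 515 genes). The spleen labelled DKO replicate 1 is alone in its number, so it adds nothing to the genotype difference in that fit.

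The 7 members that could not be tested in spleen were near the floor. Adig had 0 counts in all 6 spleens, and Lep 1 count in 1 spleen labelled DKO. Plin1 lay between 0 and 0.391 CPM, Retn between 0.0977 and 0.400, Adipoq between 0.100 and 0.880, Pck1 between 0.517 and 1.15 and Cidec between 0.259 and 1.95 CPM. Genotypes overlapped for all 7. The whole set took 0.00235% to 0.00359% of spleen counts.

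Lymph node and spleen were compared within each genotype, in 1 edgeR fit of all 12 libraries and 14608 genes. The tissues come from different animals and separate tables, so tissue cannot be told apart from any difference between those. In DKO/hA-I mice 9 of the 10 genes were higher in lymph node, with 25.7% of genes called, 11.8% as higher and 14% as lower in node. A caveat applies here too, since only Cfd, Fabp4 and Pparg reached the filter in 3 or more spleens: the other 7 entered this fit through nodes, and Lep, Retn and Adig through the DKO/hA-I nodes. Each of the 9 stood higher in all 3 DKO/hA-I nodes than in all 6 spleens, as did 17.1% of genes. Pck1 had a log2 difference of 8.29 ± 0.46 (edgeR adjusted p = 1.38e-07), Adipoq of 7.52 ± 0.64 (3.14e-06), Cidec of 7.34 ± 0.67 (5.55e-06), Cfd of 7.05 ± 0.95 (0.000137), Fabp4 of 6.25 ± 0.42 (4.88e-07) and Retn of 5.75 ± 0.81 (0.000195). Plin1, at 9.06 ± 0.70 (1.29e-06), rests on 5 counts in the 3 spleens. Lep and Adig had 0 counts in spleens labelled DKO/hA-I, so that Lep was at least 71.8-fold and Adig at least 155-fold higher in node, taking 3 counts over the group as the floor. Pparg was not called (0.63 ± 0.26, adjusted p = 0.101).

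In DKO mice the nodes stood closer to the spleen. Here 3 of the 10 genes were higher in node: Fabp4 (3.76 ± 0.40, edgeR adjusted p = 2.14e-05), Plin1 (3.55 ± 0.89, 0.0116) and Pck1 (3.11 ± 0.53, 0.000873), with 22.8% of genes called, 11.3% as higher and 11.5% as lower in node. Adipoq stood at 2.30 ± 0.83 (adjusted p = 0.0641), Retn at 2.12 ± 1.16 (0.220), Cfd at 1.98 ± 0.90 (0.137) and Cidec at 1.06 ± 0.75 (0.349), none called. In 6 genes (Adipoq, Retn, Adig, Plin1, Fabp4 and Pck1) all DKO nodes lay above all 6 spleens, as in 12.3% of genes. For Adig this rests on 1 or 2 counts per DKO node against 0 in the spleens, under the floor of 3 counts. Its log2 difference was 3.96 ± 1.99 (edgeR adjusted p = 0.200) and that of Lep 1.34 ± 2.08 (0.698), neither called. In Lep, Cfd and Cidec the DKO nodes overlapped the spleens, and in Pparg both node groups did. Against both spleen groups together, which does not use the spleen labels, 5 members were called, where 26.9% of all genes were, Adipoq (2.21, adjusted p = 0.0263) and Cfd (2.41, 0.0327) being added. Plin1 lost its call without DKO node replicates 2 or 3 (adjusted p = 0.0509 and 0.0592), without the spleen labelled DKO replicate 1 (0.0516), and under limma voom (0.101).

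The order of the group means was the same for most members. DKO/hA-I nodes were highest for 9 genes, and DKO nodes came next, with only 3 of the 10 genes called above spleens labelled DKO. The 2 spleen groups, between which no member was called, were lowest. Pparg had no such order, with group means of 29.9 ± 12.5 CPM in DKO/hA-I nodes, 18.0 ± 3.54 in DKO nodes, and 19.4 ± 1.92 and 19.3 ± 2.29 in spleens labelled DKO and DKO/hA-I. For Fabp4 the means were 710 ± 349, 74.1 ± 18.3, 5.44 ± 1.46 and 9.34 ± 2.64 CPM in the same order.

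Whether the genotype difference itself differed between the tissues was tested as an interaction in the same fit. It was called for 3 members, Cidec (-6.28 ± 1.11, edgeR adjusted p = 0.0106), Pck1 (-5.18 ± 0.90, 0.00991) and Fabp4 (-2.49 ± 0.53, 0.0254), each more negative in node, with 3.33% of genes called, 1.29% as more negative and 2.04% as more positive. Adipoq stood at -5.23 ± 1.34 (adjusted p = 0.0533), Cfd at -5.07 ± 1.33 (0.0585), Plin1 at -5.51 ± 1.87 (0.140), Retn at -3.64 ± 1.80 (0.332) and Pparg at -0.74 ± 0.38 (0.352), none called. Lep, with 1 spleen count, stood at -7.66 ± 4.29 (0.413), and Adig, with 0 in all spleens, had no usable error in edgeR. The number called was 9 by DESeq2, which called 6.66% of all genes, and 1 by limma voom, which called 1.73%. It was 0 without the spleen labelled DKO replicate 2 (1.21% of genes; adjusted p = 0.0610 for Pck1, 0.0868 for Fabp4 and 0.103 for Cidec), 1 without the spleen labelled DKO replicate 3 (1.26%) and 6 without DKO/hA-I node replicate 3 (3.17%). Fabp4 was called in 6 of the 12 fits that leave out a library, Pck1 in 10 and Cidec in 11. The test uses the spleen labels. Of the 3 called members, Cidec and Pck1 lay under the low-count filter in most spleens and so entered this fit through nodes.

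Profiles over the 12 libraries were compared by the root mean square difference of centred log2(CPM + 0.5) values, with no test. Among the members, Plin1 (0.44) and Cidec (0.47) lay nearest to Adipoq, followed by Pck1 (0.70), Cfd (0.71), Adig (0.85), Fabp4 (0.90), Retn (1.14), Lep (1.39) and Pparg (2.47); low genes are pulled together by the added 0.5. Outside the set, the 10 nearest genes were Cdo1 (0.49), Mlxipl (0.54), Thrsp (0.54), Ces1d (0.55), Car3 (0.57), Adrb3 (0.64), Cox8b (0.65), A530016L24Rik (0.70), Plin4 (0.75) and Otop1 (0.78). Cdo1, a cysteine-oxidising enzyme gene, stood at 3.81 and 146 CPM in DKO and DKO/hA-I nodes on average, and Car3, a carbonic anhydrase gene, at 13.0 and 547 CPM. For Fabp4 the nearest were Thrsp (0.72), Ces1d (0.88), Adora1 (0.90), Mlxipl (0.94) and Cdo1 (0.97). The neighbours of Pparg included other genes, Osbpl1a (0.17), Sik2 (0.18), Hoxa5 (0.18) and Sod2 (0.19), none of which was called between the genotypes in lymph node.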

How the data were processed

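Read counts per gene, raw as deposited by the authors per the file headers, came in 1 table per tissue; columns were matched to libraries through the animal code in each description. Per the submitters' processing notes, Trimmomatic, Bowtie, TopHat and Cuffdiff were used with GRCm38 (mm10); their versions, the annotation, the counting program and any use of strand were not given in the sources used here. These tables also hold the authors' log2 ratios, p-values and q-values, read only as deposited. The authors' group FPKM columns were not used.

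Genes passing filterByExpr (minimum count 10, total 15) were scaled with TMM and tested with edgeR 4.0.16 in R 4.3.3 (robust glmQLFit, glmQLFTest), within each tissue and, for tissue contrasts and the interaction, in 1 fit of 12 libraries. Calls required a Benjamini-Hochberg adjusted p under 0.05 over all genes tested. CPM uses the 12-library TMM scale. The steps were tested on simulated counts. DESeq2 1.42.0, limma 3.58.1 voom, other scaling, no filter, blocks and leaving out each library were alternatives. Transcript lengths and coordinates are from GENCODE vM21.

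The members and companion lists were chosen with earlier results of these data known. Named are all members, the 4 or fewer called genes with the lowest adjusted p in a list (with no call, 2 or fewer as values), and the genes nearest in profile to Adipoq (10), Fabp4 (5) and Pparg (5), of which 1 is not reported here. Sfrp5, Cdh13, Pdk4, Prdm16, Dio2, Pnpla3, Plin5, Cox7a1, Cd68, Cebpa, Rxra, Insr, Plin2, Lpl, Fabp5, Ucp1, Adipor1, Adipor2, Tlx1, Nkx2-5, Glycam1, the keratin genes, Apoa1 and Rpl31-ps12 were named after their values were seen.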

Additional observations from a re-analysis of the deposited data

Results flagged for a closer look

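For 3 genes the DKO minus DKO/hA-I difference in lymph node differed from that in spleen by a test of the difference itself (interaction in the edgeR fit of 12 libraries, 14608 genes). The log2 difference of differences was -6.28 for Cidec (adjusted p = 0.0106), -2.49 for Fabp4 (adjusted p = 0.0254) and -5.18 for Pck1 (adjusted p = 0.00991). All 3 DKO nodes lay below all 3 DKO/hA-I nodes for each gene, while in spleen the genotypes overlapped for Cidec and Pck1. These calls rest on few libraries: when each of the 12 was left out in turn, Cidec was called in 11 fits, Pck1 in 10 and Fabp4 in 6. Without the spleen labelled DKO replicate 2 none of them was called (adjusted p = 0.103 for Cidec, 0.0610 for Pck1 and 0.0868 for Fabp4), and without the spleen labelled DKO replicate 3 Pck1 (0.0553) and Fabp4 (0.0914) were not. Fabp4 also lost its call without DKO node replicate 3 (0.0610), DKO/hA-I node replicate 2 (0.0655) and the spleens labelled DKO/hA-I replicates 2 (0.0725) and 3 (0.0718), and with limma voom both Fabp4 (0.0877) and Cidec (0.0724) did. With the spleen labels exchanged, the spleen part of these differences would change sign. Cidec and Pck1 reached the low-count filter in fewer than 3 spleens, and so entered the fit of 12 libraries through nodes.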

How the results depend on the processing

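In lymph node, the count of called members was 9 with DESeq2, library sizes alone, upper-quartile factors, the 12-library fit and the replicate block, 7 without the filter and with limma voom, and 6 to 8 when each library was left out; Adipoq, Adig, Plin1, Cidec, Fabp4 and Pck1 were called under all 13 alternatives. Over all genes, 962 calls became 1967 with DESeq2, 2253 in the 12-library fit, 438 with the replicate block and 115 to 2245 without a library. Replicate numbers did not pair the libraries: deviations of same-numbered libraries correlated at -0.143, 0.035 and -0.038 in lymph node, at -0.016, 0.124 and -0.110 in spleen and at -0.057 to 0.045 across tissues. With the number as a block anyway, members called were 9 in lymph node, 0 in spleen, 7 for node minus spleen in DKO (3 without it), 9 in DKO/hA-I, and 5 for the difference of differences (3 without it), while 3.13%, 0.00714%, 20.3%, 23.6% and 2.05% of all genes were called. The last was 9 with DESeq2 (6.66% of genes), 1 with limma voom (1.73%) and 0 to 6 when a library was left out. Against both spleen groups, the DKO nodes gave 5 called members (26.9% of genes). In spleen, 1 member (Cfd) was called with the middle number of the animal code as a block (the animal code block), in a fit that called 3.68% of genes. Spleen directions that turned were those of Pparg, from -0.00 to 0.0012 without the filter, 0.0018 with limma voom, 0.00084 with the replicate block, 0.0067 in the 12-library fit, 0.068 with the animal code block and -0.090 to 0.065 without a library, all far from the threshold, and of Cfd, from 0.84 to -0.29 without DKO replicate 2 (-0.29 to 1.26 over single libraries left out). The cause was not tested. Of 612 member values under alternatives, 548 kept direction and side of the threshold, 34 lost a call, 21 gained one and 9 turned. For Lep and Adig, DKO and spleen counts of 0 to 2 per library limit any fold.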

Other observations

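Sfrp5, a secreted Wnt antagonist known from fat, differed in direction from Lgals12 and Rbp4 in lymph node, with a log2 fold change of 4.56 ± 1.16 (DKO minus DKO/hA-I, edgeR adjusted p = 0.0596, not called). Its genotypes overlapped, at 2.70 to 58.3 CPM in DKO nodes and 0.323 to 3.62 CPM in DKO/hA-I nodes. Slc2a4 stood at 15.1 ± 11.3 CPM in the DKO spleens and 9.21 ± 0.146 CPM in the DKO/hA-I spleens, as labelled, above the 2.09 ± 1.05 CPM of DKO nodes. The cadherin gene Cdh13, which encodes a binding partner of adiponectin, stood at 8.45 ± 3.21 CPM in nodes of DKO mice and 4.16 ± 1.76 CPM in those of DKO/hA-I mice (log2 fold change 1.04 ± 0.39, edgeR adjusted p = 0.147).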
